A study of Homo sapiens with 2 samples.

Results

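The genes described here act in arginine breakdown and in the making, control and removal of polyamines: ARG2, ODC1, AMD1, SRM, SMS, OAZ1, OAZ2, AZIN1, SAT1 and SMOX. These 10 genes, of 26506 in the deposited tables, were chosen by symbol, with earlier results from the same libraries in view, in which ARG2 had stood among the lower genes. The difference between the media is therefore given as a description, with no test. All 10 symbols matched a single row in both tables.

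Poly(A) RNA was sequenced from an established human corneal epithelial cell line (ATCC CRL-11515) after 72 hours in either medium. One was keratinocyte serum-free medium (KSFM), whose supplements the labels do not list. The other, called here the special medium, had DMEM/F12 as its base with calcium chloride (1 mM), fetal bovine serum (10%), EGF (10 ng/mL) and an antibiotic and antimycotic mix. RNA of 3 biological replicates was pooled for each medium, so each medium has 1 library, the difference has no replicate check, and serum, calcium, EGF and base medium cannot be told apart. The KSFM library held 21604652 estimated counts and the special medium library 16900472. Of the markers that define corneal epithelium, KRT12 had 0 counts in both libraries, KRT3 had 0 and 1, and PAX6 stood at 1.89 and 3.66 TPM. Of 8 general epithelial markers 6 reached 1 CPM, and the list summed to 2290 TPM in KSFM and 5201 TPM in the special medium. KRT18 gave the largest part of these sums, with 1128 and 2503 TPM. KRT14 (4 and 10 counts) and TP63 (5 and 13 counts) did not reach 1 CPM in either library. Among those that did, KRT8, KRT18, KRT19 and EPCAM were higher in the special medium library, with log2 ratios of 0.40 to 1.78. KRT5 (-0.60) and CDH1 (-0.32) were lower. Fibroblast and keratocyte markers summed to 2.61 and 3.23 TPM, mostly from COL1A1 (2.43 and 2.97 TPM), with KERA, LUM and THY1 at 0. Endothelial markers summed to 0.30 and 7.74 TPM, nearly all of the latter from CDH5, and their part in the results was not tested. Immune markers summed to 59.79 and 70.99 TPM, nearly all from CD68, with CD3E at 0. Melanocyte markers summed to 4.44 and 6.48 TPM, mostly from PMEL (3.73 and 6.18 TPM), with TYR at 0. In each of these 4 lists 1 gene reached 1 CPM. In a bulk library, fewer cells with a transcript and less of it per cell cannot be told apart.

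Polyamines are small, positively charged molecules that bind nucleic acids and that dividing epithelial cells need for growth and repair. Arginase splits arginine into ornithine and urea, ornithine decarboxylase turns ornithine into putrescine, and successive aminopropyl transfers turn putrescine into spermidine and then spermine. Antizymes bind ornithine decarboxylase and deliver it to the proteasome, antizyme inhibitors compete for the antizyme, and acetylation and oxidation run the chain backwards.

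Levels are given in TPM (the deposited unit, which accounts for transcript length) and ratios between media from counts scaled to library size, as special medium over KSFM. Ranges in parentheses are exact 95% intervals, which cover counting error only, as sequenced reads without identifiers can copy 1 molecule. The call rule asked that a gene reached 1 CPM (its scaled count as a share of the library) in either library, differed at least 2-fold, and had an interval without equality. By this rule 1 member was called higher (SMS) and 3 were called lower (ARG2, ODC1 and SRM), and 6 were neither. Of 13632 genes at 1 CPM or more, 16.6% were called, 9.86% higher and 6.77% lower. Since the members were chosen with this contrast known, nothing is read from the comparison of these shares. The median log2 ratio was 0.05 over the members, all of which passed the filter in both libraries, and 0.00 over all genes at the filter.

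**Figure D1:**
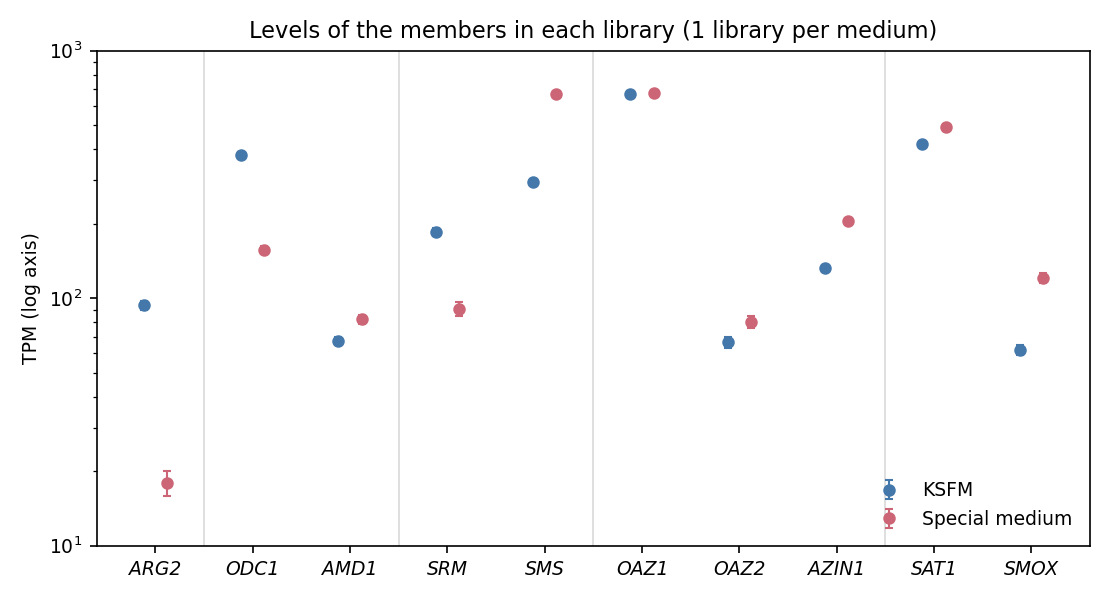
TPM (log axis) of each member in KSFM (blue) and special medium (red), grouped by role from arginase at the left to catabolic enzymes at the right; bars are 95% counting intervals and there is 1 library per medium. ARG2 stands at 93.60 and 17.87 TPM, and SMS at 294.38 and 667.31 TPM.

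ARG2, the mitochondrial arginase, had 93.60 TPM in KSFM and 17.87 TPM in the special medium, on 2071 and 274 counts. KSFM was thus the library with more ARG2, and the counting intervals of both levels, 89.6 to 97.7 TPM and 15.8 to 20.1 TPM, lay far apart. The log2 ratio was -2.57 (-2.75 to -2.38), and 0.528% of all genes at the filter had a lower one. The other arginase gene, ARG1, the cytosolic form known from liver, had 0 counts in both libraries, which at the floor of 3 counts allows up to 0.139 CPM (KSFM) and 0.177 CPM (special medium). It was singled out after its values were seen. ARG2 (ENSG00000081181) lies on chromosome 14 from 67619798 to 67651720 on GRCh38, and 904 bases of its annotated exons are shared with VTI1B on the opposite strand. The library kit keeps strand, but the strand setting of the counting is not given in the sources used here, so reads of these genes may not have been separated. VTI1B had 4295 and 3115 counts, a log2 ratio of -0.11.

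The genes at 10 CPM or more whose log2 ratio came nearest to that of ARG2 were SDF2L1, a chaperone cofactor of the endoplasmic reticulum (-2.60), SEC11C, a signal peptidase subunit (-2.53), and MT1X, a metallothionein (-2.52). The likeness is a difference of at most 0.05 in 1 ratio over 2 libraries.

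ODC1 encodes ornithine decarboxylase, the rate-limiting enzyme of polyamine synthesis. Its level was 380.74 TPM in KSFM and 156.97 TPM in the special medium, on 8914 and 2581 counts. The special medium library was 2.71-fold lower (2.59 to 2.83), a log2 ratio of -1.44, and 2.91% of all genes at the filter had a lower ratio. AMD1, the S-adenosylmethionine decarboxylase that supplies the aminopropyl donor to both synthases, did not share this difference. It stood at 67.29 and 82.06 TPM, on 2621 and 2234 counts, with a log2 ratio of 0.12 (0.04 to 0.20), and the sign turned to -0.03 once a trend of the ratios on transcript length was removed. ODC1 was thus 5.66 times as abundant as AMD1 in KSFM and 1.91 times in the special medium, a ratio not planned beforehand.

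SRM, the spermidine synthase that converts putrescine to spermidine, had 185.01 TPM in KSFM and 90.32 TPM in the special medium, on 2560 and 855 counts. It was 2.35-fold lower in the special medium (2.17 to 2.54), a log2 ratio of -1.23. SMS, the spermine synthase that acts on the product of SRM, went the other way, from 294.38 to 667.31 TPM on 6017 and 9446 counts. Its log2 ratio was 1.00 (0.95 to 1.05), so it sat on the 2-fold line itself. It was 0.98 under upper quartile scaling and 0.97 with the length trend removed, and was then not called. From TPM plus a pseudocount of 1 it came to 1.18, a scale on which the median of all genes shifts by 0.15, and with that median set to 0 it came to 1.03. The spermine synthase had 1.59 times the TPM of the spermidine synthase in KSFM and 7.39 times in the special medium, a ratio set up after the values were seen. Neither synthase gene overlaps another annotated gene, and by name SRM has 2 processed pseudogenes in GENCODE 29, AMD1 has 4 and ODC1 has 1, which makes the assignment of reads to these 3 genes less certain.

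**Figure D2:**
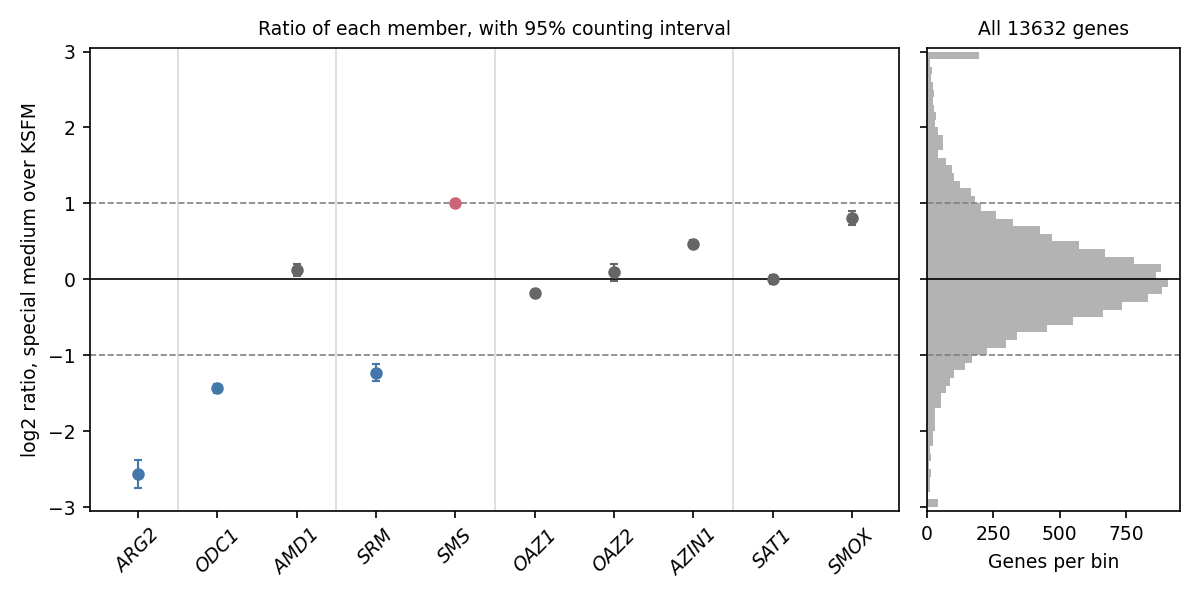
Left, log2 ratio of special medium over KSFM for each member with its 95% counting interval, with dashed lines at 2-fold (blue called lower, red called higher, grey neither); right, the same ratio for all 13632 genes at 1 CPM or more, the end bins holding all genes beyond them. ARG2, ODC1 and SRM lie below the lower dashed line, and SMS lies on the upper one.

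Where RefSeq gives a start, the bases around it are described for the members. Whether they bear on the direction of any gene was not tested. The RefSeq table of promoters (GRCh38.p14, 250 bases before to 50 after each start) held 8 of the 10 members, in 11 windows. It held none for AZIN1 and SMOX. Windows were searched on both strands for the E-box CACGTG, the motif of MYC-type factors, the cyclic AMP response element TGACGTCA, the GC box GGGCGG and the CCAAT box; adjoining GC boxes may overlap. Below are the part of the ARG2 and SRM windows that lies before the first exon of GENCODE 29 (chr14:67619670-67619797, plus strand, and chr1:11060025-11060268, minus strand), with E-box, response element and CCAAT motifs (ATTGG on the other strand) in capitals.
ARG2 upstream: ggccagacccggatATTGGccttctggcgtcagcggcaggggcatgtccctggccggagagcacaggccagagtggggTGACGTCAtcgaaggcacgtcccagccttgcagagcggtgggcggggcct
SRM upstream: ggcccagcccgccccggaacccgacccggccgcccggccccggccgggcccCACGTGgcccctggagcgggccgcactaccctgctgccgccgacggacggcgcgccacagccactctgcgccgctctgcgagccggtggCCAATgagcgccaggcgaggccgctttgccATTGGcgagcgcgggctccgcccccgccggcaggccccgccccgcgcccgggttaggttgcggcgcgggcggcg

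ARG2 held the cyclic AMP response element at 2 places, the one above and another within its first GENCODE exon but before the RefSeq start (chr14:67619845-67619874), whereas no other member window held it. Of all 35116 windows, 1.85% held that motif. The E-box lay in the SRM window and at 2 places in the second of the ODC1 windows, on either side of a RefSeq start that lies within an intron by GENCODE 29 (chr2:10448024-10448053 and chr2:10447990-10448019, minus strand), against 7.26% of all windows. The first ODC1 window held neither motif, and its bases are not shown. Neither motif was thus shared by the 3 genes called lower. The exon site of ARG2 and the 2 sites of ODC1 are shown with their motif in capitals.
ARG2 first exon: caatgtggcggTGACGTCAcggggcgggcg
ODC1 intron, first: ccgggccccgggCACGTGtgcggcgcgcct
ODC1 intron, next: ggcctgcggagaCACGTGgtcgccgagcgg

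The GC box lay in 10 of the 11 member windows and in 45% of all windows, and the CCAAT box in 6 of 11 and in 34.6% of all. Of the 3 AMD1 windows, 2 overlap in all but 1 base, so windows are not independent. These matches describe letters and not binding, and no factor was measured.

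None of the 3 members that regulate ornithine decarboxylase, OAZ1, OAZ2 and AZIN1, was called. OAZ1, the major antizyme, was the most abundant member in both, at 670.40 TPM in KSFM and 677.75 TPM in the special medium, on 8553 and 5898 counts. Its log2 ratio was -0.19 (-0.23 to -0.14) on counts and 0.02 on TPM with a pseudocount of 1, so no direction is given for it. OAZ2, a less abundant antizyme, had 66.39 and 80.06 TPM, on 1433 and 1197 counts, with a log2 ratio of 0.09 and an interval (-0.02 to 0.20) that included equality. AZIN1, a homologue of ornithine decarboxylase that lacks its activity and captures antizyme, stood at 133.00 and 205.56 TPM, on 6546 and 7103 counts. It was 1.38-fold higher in the special medium (1.34 to 1.43), which is short of the 2-fold rule. That log2 ratio of 0.47 became 0.31 with the length trend removed and 0.62 on TPM with a pseudocount of 1. Both lie outside the counting interval. AZIN1 shares 344 exon bases with the antisense gene AZIN1-AS1, which had 61 and 8 counts. OAZ1 shares 220 exon bases with a gene on its own strand and 236 with JSRP1 on the other, and OAZ2 shares 554 with an antisense gene. JSRP1 had 0 counts in both libraries. The same-strand gene of OAZ1 and the antisense gene of OAZ2 were not found by name in the deposited tables, so their counts could not be checked.

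Set side by side per length, the antizyme genes OAZ1 and OAZ2 summed to 1.43 times the TPM of ODC1 and AZIN1 in KSFM and to 2.09 times in the special medium. OAZ1 alone had 1.76 and 4.32 times the TPM of ODC1. AZIN1 was less abundant than ODC1 in KSFM (0.349 times) and more abundant in the special medium (1.31 times), a ratio that was not planned beforehand. These are ratios of transcripts, and antizyme protein also depends on a ribosomal frameshift, which a count of transcripts does not measure.

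That frameshift site is shown for both antizyme members, and not for OAZ3, an antizyme outside the member list. In GENCODE 29 the coding sequences of OAZ1 and OAZ2 each skip 1 base, at a TGA codon (capitals). That codon ends the first reading frame after 68 codons in OAZ1 and 32 in OAZ2. The windows are chr19:2271419-2271469 on the plus strand and chr15:64691489-64691539 on the minus strand.
OAZ1: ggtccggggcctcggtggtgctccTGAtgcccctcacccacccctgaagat
OAZ2: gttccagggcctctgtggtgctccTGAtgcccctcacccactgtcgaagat

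In both, the codon before the TGA is TCC, and 44 of the 51 bases are identical. The full coding sequences run to 228 and 189 codons.

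The catabolic members were not called. SAT1, the acetyltransferase that marks spermidine and spermine for export or oxidation, had 418.35 TPM in KSFM and 491.04 TPM in the special medium, on 5128 and 4020 counts. Its log2 ratio on counts was 0.00 (-0.06 to 0.06), against 0.23 from TPM plus a pseudocount of 1, and 0.08 once that scale was centred. SMOX, the oxidase that turns spermine back into spermidine and releases hydrogen peroxide, had 61.75 and 120.81 TPM, on 1527 and 2095 counts. It was 1.75-fold higher in the special medium (1.64 to 1.87), and 86.8% of all genes at the filter had a lower ratio. SMOX was the least abundant of the 10 members in KSFM and the sixth in the special medium.

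The order of the members by TPM changed between the libraries. In KSFM it ran OAZ1, SAT1, ODC1, SMS, SRM, AZIN1, ARG2, AMD1, OAZ2 and SMOX. The counting intervals of AMD1 and OAZ2, and of OAZ2 and SMOX, overlapped in KSFM. Overlap of separate intervals does not show that levels are equal, and no ratio between neighbours was tested. In the special medium it ran OAZ1, SMS, SAT1, AZIN1, ODC1, SMOX, SRM, AMD1, OAZ2 and ARG2. There the intervals of OAZ1 and SMS overlapped, as did those of SRM and AMD1 and of AMD1 and OAZ2. The 10 genes summed to 2371 TPM in KSFM and 2590 TPM in the special medium. Within those sums ODC1 took 16.1% and 6.06%, SMS 12.4% and 25.8%, SRM 7.80% and 3.49%, and ARG2 3.95% and 0.69%. ODC1, SRM and ARG2 thus each took a smaller share in the special medium, and SMS a larger one.

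Genes around the members were read from 6 lists with 62 entries. All were found in the tables, PYCR3 under its older symbol PYCRL, and 45 reached 1 CPM. Of these, 6 were called higher, 4 lower and 35 neither, or 22.2% called, beside 16.6% of all genes at the filter. Their median log2 ratio was -0.07, beside 0.00 over all genes at the filter.

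Of 16 genes of arginine use and the urea cycle, 8 reached the filter, with 1 higher and 7 neither (median -0.08). The higher one was DDAH2, of the family that degrades methylated arginines, at 14.42 TPM in KSFM and 39.54 TPM in the special medium, 2.47-fold (2.10 to 2.91). Of 11 genes linking ornithine with proline and glutamate, 10 reached the filter, with 0 higher, 2 lower and 8 neither (median -0.59). PRODH, the proline dehydrogenase, went from 6.55 to 2.33 TPM, 3.22-fold lower (2.23 to 4.78) on 148 and 36 counts. GLS2, a glutaminase, went from 4.94 to 2.63 TPM on 145 and 55 counts, 2.07-fold lower (1.51 to 2.87). It was not called on TPM.

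Of 5 further polyamine regulators and oxidases 3 reached the filter, with 1 lower and 2 neither (median -0.82). The lower one, OAZ3, a testis-type antizyme, rested on 34 and 7 counts. The 4 genes of hypusine synthesis, which uses spermidine to modify the translation factor eIF5A, held no call (median 0.07). EIF5A itself stood at 562.84 TPM in KSFM and 782.62 TPM in the special medium, 1.20-fold higher (1.17 to 1.24), and DHPS, the deoxyhypusine synthase that takes up spermidine, at 58.72 and 121.51 TPM, 1.81-fold higher (1.66 to 1.98) on counts. On TPM before centring, 1 gene of the list passed 2-fold, and that was DHPS.

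Of 12 genes linked to polyamine transport 8 reached the filter, with 2 higher and 6 neither (median 0.04). CAV1, the coat protein of caveolae, went from 40.69 to 251.03 TPM on 1241 and 5326 counts, 5.47-fold higher (5.14 to 5.83).

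Of 14 genes of methionine salvage and S-adenosylmethionine supply 12 reached the filter, with 3 higher, 1 lower and 8 neither (median 0.26). MAT2A, the S-adenosylmethionine synthetase that feeds the reaction of AMD1, stood at 90.67 TPM in KSFM and 258.91 TPM in the special medium, 2.54-fold higher (2.43 to 2.66). GOT1, an aminotransferase, went from 67.97 to 181.04 TPM, 2.36-fold (2.22 to 2.51). MAT1A, the liver-type synthetase, had 2 and 23 counts, a ratio of 14.7 (3.62 to 128). Its KSFM count lay under the floor of 3 counts, and its levels were 0.05 and 0.85 TPM. MAT1A was short of 2-fold on TPM with a pseudocount of 1 and did not reach 10 CPM. ADI1, a dioxygenase of methionine salvage, went from 132.80 to 70.10 TPM, 2.15-fold lower (1.99 to 2.32) on counts, and was short of 2-fold on uncentred TPM. Higher and lower genes thus stood in the same list.

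**Figure D3:**
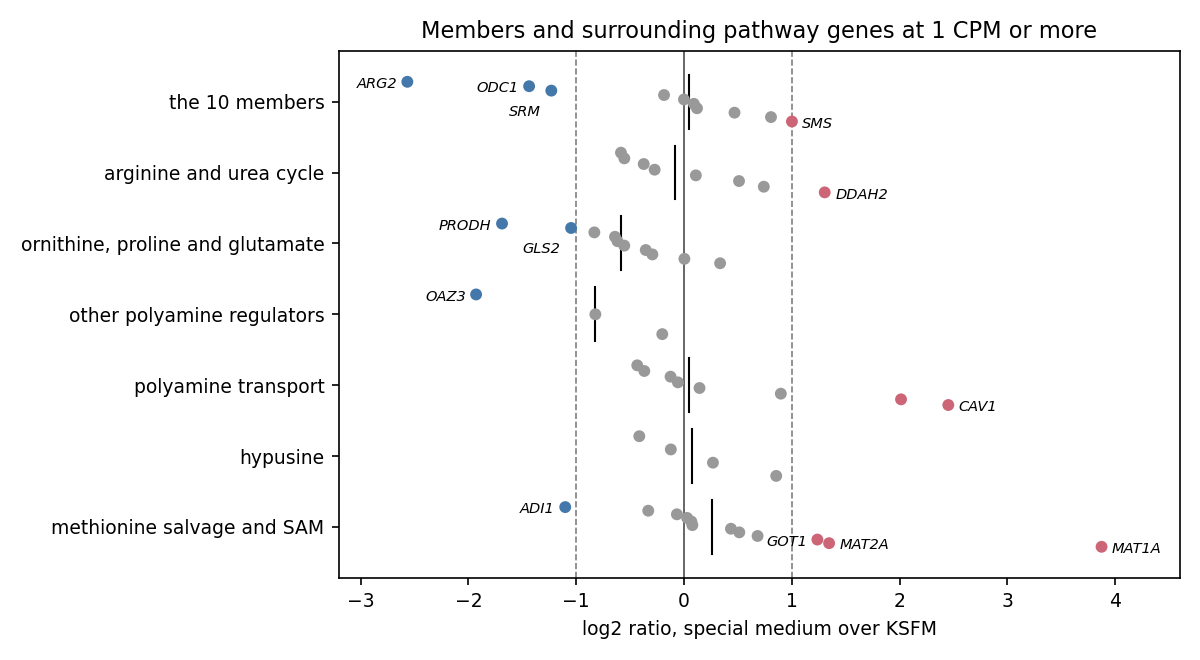
Log2 ratio of special medium over KSFM (horizontal axis) for the members and for each list of surrounding genes at 1 CPM or more; each point is a gene, black lines are list medians, dashed lines mark 2-fold, and most called genes are named (blue lower, red higher). The list of ornithine, proline and glutamate genes has its median at -0.59, and calls in both directions stand in the methionine salvage list.

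Across 8 scalings or units of the same 2 libraries, ARG2 ranged from -2.62 to -2.33 on the log2 scale, ODC1 from -1.51 to -1.27 and SRM from -1.25 to -1.03, and these 3 were called lower in each. SMS ranged from 0.97 to 1.18, SMOX from 0.72 to 0.97, AZIN1 from 0.31 to 0.63 and OAZ2 from 0.04 to 0.27. AMD1, OAZ1 and SAT1 each lay on both sides of 0.

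**Figure D4:**
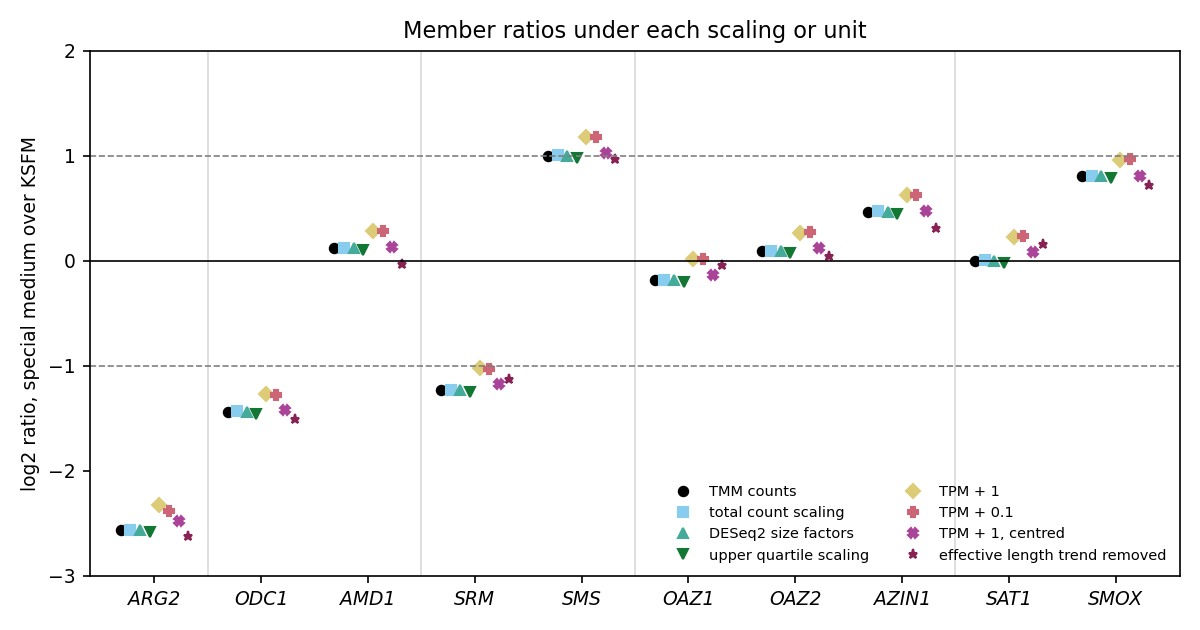
Log2 ratio of special medium over KSFM of each member (vertical axis) under TMM-scaled counts and 7 other scalings or units, 1 symbol each, with dashed lines at 2-fold. ARG2, ODC1 and SRM stay below the lower line in all 8, and the SMS symbols lie on either side of the upper line.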

How the data were processed

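Poly(A) RNA of 3 biological replicates per medium was pooled into 1 library, per the labels. Tools listed in the submitters' processing notes are HISAT2 2.1.0, RSEM, fastp 0.20.0 and FastQC 0.11.9, with the build GRCh38. Neither the annotation nor the strand setting of the counting is given in those notes. The authors deposited TPM values and estimated counts per gene, which were not whole for 11.3% (KSFM) and 8.05% (special medium) of genes. Estimated counts were rounded. Libraries were scaled by edgeR 4.0.16 TMM factors (0.999 and 1.00), and ratios were given Clopper-Pearson intervals (scipy 1.17.1). The call rule was also run on simulated counts, but the outcome is not given here and lends the calls no support. With 1 library per medium no test between media was made.

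The members and lists were chosen with earlier results of these data known. Named genes are all members, up to 4 called genes per list with the largest ratios (the 2 with the highest TPM if none), and the 3 genes nearest to ARG2; a few items are not reported here. Gene bounds and exons came from GENCODE 29. Alternatives were total count, upper quartile and DESeq2 1.42.0 scaling, TPM with pseudocounts of 1 and 0.1, centring, removal of a cubic trend on effective length (estimated count per TPM), filters of 10 CPM or none, a 4-fold rule, and intervals beyond 2-fold. TPM calls used the fold alone.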

Additional observations from a re-analysis of the deposited data

How the results depend on the processing

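No paired analysis was possible because each medium has 1 library, and for the same reason no library could be left out. The 4 members called gave 1 under a 4-fold rule, ARG2 alone. The 3 lower calls were ARG2, ODC1 and SRM under every alternative but that rule, which left 1. The 1 higher call, SMS, became 0 under upper quartile scaling, with the length trend removed, under the 4-fold rule and with intervals beyond 2-fold. In the arginine and urea cycle list the count of called genes went from 1 to 0 under the 4-fold rule. In the ornithine, proline and glutamate list it went from 2 to 1 on TPM with either pseudocount, on centred TPM and with intervals beyond 2-fold, and to 0 with a filter of 10 CPM and under the 4-fold rule. In the list of other polyamine regulators it went from 1 to 0 with a filter of 10 CPM, under the 4-fold rule and with intervals beyond 2-fold. In the transport list it went from 2 to 1 on centred TPM, with a filter of 10 CPM and with intervals beyond 2-fold. The transport count rose to 3 on TPM with a pseudocount of 0.1. In the hypusine list it went from 0 to 1 on TPM with either pseudocount. In the methionine salvage list it went from 4 to 2 on TPM with a pseudocount of 1 and to 1 under the 4-fold rule. That count was 3 on TPM with a pseudocount of 0.1, on centred TPM, with a filter of 10 CPM and with intervals beyond 2-fold. Over all genes 2267 were called, against 1464 on centred TPM, 1234 with a filter of 10 CPM, 570 under the 4-fold rule and 1232 with intervals beyond 2-fold. Higher genes made up 59.3% of calls on counts, 78.4% on TPM with a pseudocount of 1, 73.4% with 0.1, 71.6% under the 4-fold rule and 67.9% with intervals beyond 2-fold. The antizyme ratio of 1.43 (KSFM) and 2.09 (special medium) became 1.76 and 4.32 for OAZ1 over ODC1 alone. No member ratio that was called changed sign under any alternative. Counts by list rest on few genes, and those of OAZ3 and MAT1A on under 40 counts per library.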
